A study of Homo sapiens with 6 samples.

Results

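Aldehyde dehydrogenases, aldo-keto reductases, cytochromes P450, UDP-glucuronosyltransferases, glutathione S-transferases and sulfotransferases were examined in NCI-N87 cells carrying a control vector or a SCAMP1 short hairpin RNA (shRNA). All protein-coding genes whose symbols begin with ALDH, AKR, CYP, UGT, GST (classes A, K, M, O, P, T and Z) or SULT followed by a number were taken, which gave 140 of the 58735 genes in the expression table. NCI-N87 is an established human gastric carcinoma line. The cells labelled shNC received the control lentivirus, which the study's methods describe as the empty pSIH-H1-puro vector and call shCtrl, and the cells labelled shScamp1 received the same vector with a single SCAMP1 shRNA, called shS1#1. Both groups were exposed to polybrene during infection and were selected with puromycin (2 μg/ml), so they are stable populations rather than clones, and a single shRNA sequence stands for the knockdown. Expression was available in FPKM, a read count corrected for the length of the gene and the depth of the library, for 3 libraries per group. Whether the 3 libraries of a group came from separate infections is not stated in the sources used here, so the p-values measure the spread between these libraries only.

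These enzymes form the system with which cells modify and clear reactive aldehydes, hormones, lipids and foreign compounds. Cytochromes P450 insert oxygen into their substrates, aldehyde dehydrogenases oxidise aldehydes to acids, and aldo-keto reductases reduce aldehydes and ketones to alcohols. The transferases of the UGT, GST and SULT families then join glucuronic acid, glutathione or sulfate to the products. Besides detoxification, several members make or remove signalling molecules: the ALDH1A enzymes produce retinoic acid from retinal, the CYP26 enzymes degrade retinoic acid, CYP24A1 inactivates vitamin D hormones, and AKR1C3 interconverts steroids and prostaglandins.

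The libraries held 14311769 to 15988700 reads on genes, and SCAMP1, the targeted gene, was at 11.5 to 12.6 FPKM in shNC and 1.37 to 1.99 FPKM in shScamp1 libraries. Replicate 2 of shScamp1 stood apart: 9.21% of its reads were mitochondrial against 6.09% to 6.78% in the other 5, and its log2 expression correlated with the other shScamp1 libraries at 0.926 and 0.931, against 0.953 between those. Of 9 epithelial markers all 9 were expressed and 5 rose in shScamp1 cells (KRT8, KRT18, KRT19, CLDN4 and CDH1), with a summed level of 5612 to 5895 FPKM in shNC and 9330 to 10220 FPKM in shScamp1 libraries. Of 8 gastric markers only MUC1 averaged at least 0.5 FPKM over the 6 libraries, and TFF1 was at 0 in every library. MUC5AC, under that mean and so not tested, averaged 0.0851 FPKM in shNC and 0.685 FPKM in shScamp1 libraries. Hepatocyte markers, relevant because many of these enzymes are abundant in liver, were near 0 in 6 of 7 cases (APOB and TTR at 0 throughout), and only SERPINA1 was expressed (9.39 FPKM on average in shNC and 19.96 in shScamp1 libraries). Among 14 squamous epithelial markers 12 were tested, 9 rose in shScamp1 cells, and their summed level was 1445 to 1563 FPKM in shNC and 2561 to 2707 FPKM in shScamp1 libraries, although TP63, a defining squamous factor, averaged 0.0196 and 0.0280 FPKM. Of all genes tested, by the test described below, 8.82% were higher in shScamp1 cells. The part of these marker shifts in the results below was not tested.

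Of the 140 enzyme genes, 28 had no reads in any library, 60 had reads but a mean under 0.5 FPKM, and 52 were tested. Of the 19 ALDH genes 16 were tested, of 13 AKR genes 5, of 56 CYP genes 19, of 17 GST genes 9, of 13 SULT genes 2 and of 22 UGT genes 1. Testing was done with limma on log2(FPKM + 0.1) over all 15556 genes at or above 0.5 FPKM, a scale on which the change of a low gene appears smaller than it was. In shScamp1 cells 12 of the 52 rose (23.1%) at an adjusted p under 0.05 and 3 fell (5.77%), against 8.82% of all genes tested that were higher and 5.17% that were lower. A log2 fold change above 1 was also reached by 6 of the 12, against 2.42% of all genes tested, and a log2 fold change below -1 by 0 of the 3, against 0.746% of all genes tested. That count of 0 was also found at an unadjusted p under 0.05 and with voom on recovered reads. The FPKM ranges of the groups did not overlap for 35 of the 52 (67.3%), against 41.4% of all genes tested. Over the 52 members the log2 fold changes had a median of -0.005, beside -0.022 for all genes tested, with 26 members above 0 and 26 below. The calls came from 3 families: 5 ALDH genes rose and 2 fell, 1 AKR gene rose, and 6 CYP genes rose and 1 fell. Whether the families differed from each other was not tested.

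**Figure D1:**
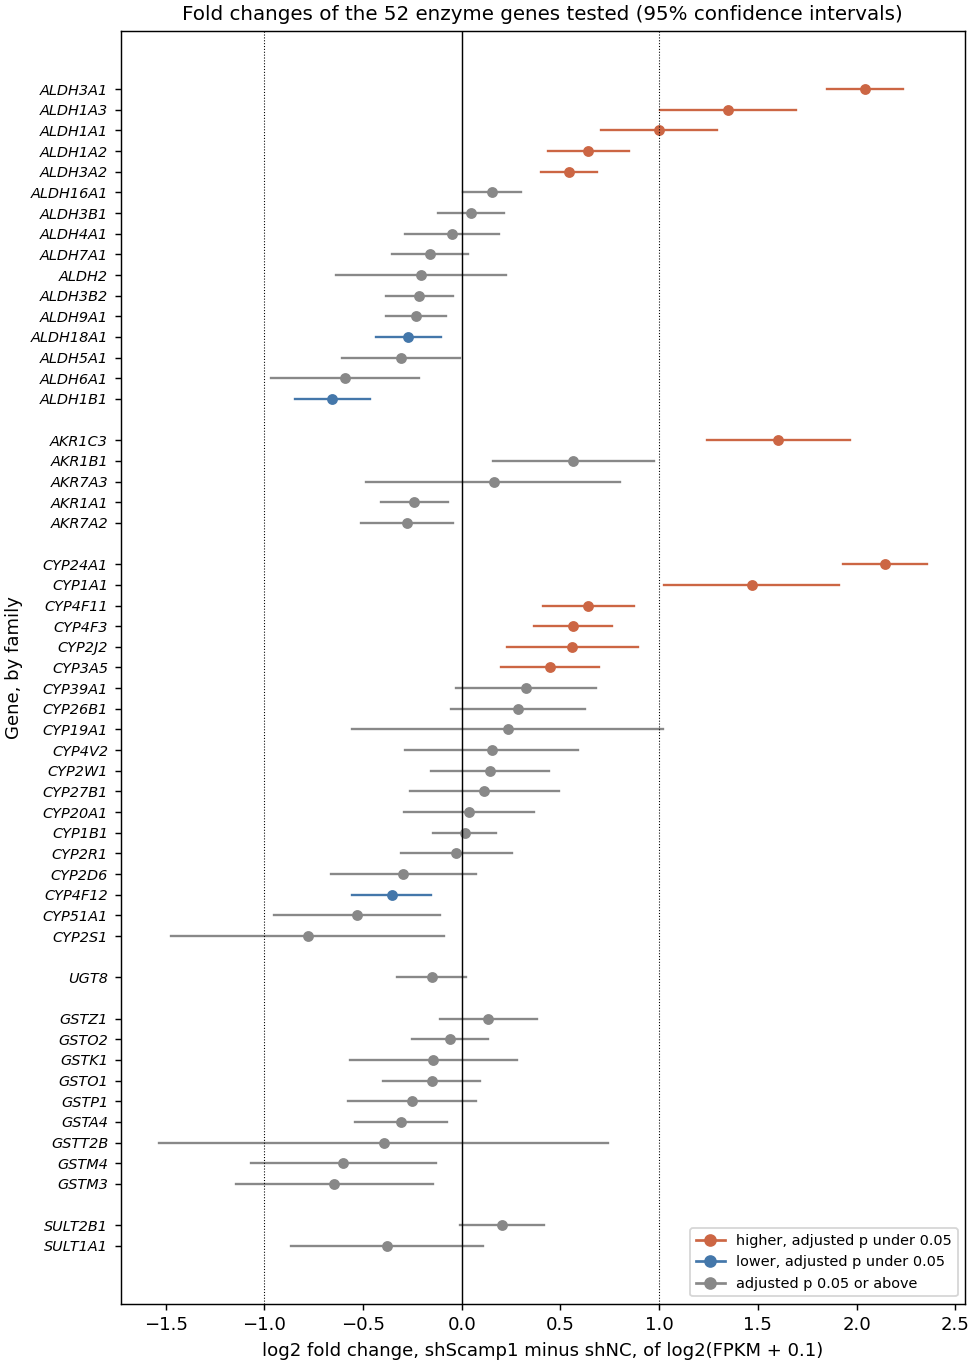
Log2 fold change (shScamp1 minus shNC, horizontal axis) of the 52 enzyme genes tested, grouped by family, with 95% confidence intervals from limma. Orange marks the 12 genes that rose, blue the 3 that fell and grey the 37 that did not pass the test, and the dotted lines lie at -1 and 1.

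The summed level of the ALDH family was 314, 315 and 323 FPKM in the shNC libraries and 603, 517 and 587 FPKM in the shScamp1 libraries. The ranges did not overlap, and most of the gain came from ALDH1A1 and ALDH3A1. The summed CYP level was 91.5 to 93.0 FPKM in shNC and 114 to 122 FPKM in shScamp1 libraries, again without overlap. Within it CYP24A1 averaged 5.09 FPKM in shNC and 22.9 FPKM in shScamp1 libraries, and CYP4F3 15.1 and 22.4 FPKM. In contrast, the summed GST level was 555 to 584 FPKM in shNC and 401 to 547 FPKM in shScamp1 libraries, the lowest being replicate 2. GSTP1 alone averaged 446 FPKM in shNC and 378 FPKM in shScamp1 libraries. Sums are given as a description of levels, in which the abundant genes weigh most, and no test was run on them.

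Among the aldehyde dehydrogenases the 3 retinal dehydrogenases, which make retinoic acid, all rose. ALDH1A1, the most abundant of the 19 ALDH genes in both groups, was at 108.5, 111.3 and 111.0 FPKM in shNC and at 242, 184 and 242 FPKM in shScamp1 libraries. Replicate 2 was the lowest of the shScamp1 libraries, and all 3 were above every shNC library. Its log2 fold change was 1.00 (standard error, SE, 0.12, limma adjusted p = 0.00438), at the fold threshold itself, and without shScamp1 replicate 2 it was 1.13. With FPKM rescaled to equal library totals it was 0.97, and without shScamp1 replicate 1 or replicate 3 it was 0.93. The gene lies on chromosome 9 from 72900662 to 73080442. ALDH1A3, another retinal dehydrogenase (chromosome 15, 100877714 to 100916626), was at 3.54, 3.35 and 3.53 FPKM in shNC and 10.7, 7.29 and 9.37 FPKM in shScamp1 libraries, with no overlap. Its log2 fold change was 1.35 (SE 0.14, limma adjusted p = 0.00263). On the opposite strand AC015712.2 covers 27.5% of the exonic bases of ALDH1A3, and no source used here says whether strand was used in counting. AC015712.2 itself was at 0.589 ± 0.0439 FPKM in shNC and 0.781 ± 0.128 FPKM in shScamp1 libraries (SD, n = 3 per group). The part of this overlap in the ALDH1A3 values was not tested. ALDH1A2 rose less, from 2.93 ± 0.196 FPKM in shNC to 4.62 ± 0.221 FPKM in shScamp1 libraries (n = 3 per group, SD), with a log2 fold change of 0.64 (adjusted p = 0.00618 by limma).

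ALDH3A1, which oxidises aromatic and medium-chain aldehydes and is abundant in cornea and stomach, had the largest change of the ALDH family. It was at 48.1, 47.3 and 50.01 FPKM in shNC and 216, 184 and 202 FPKM in shScamp1 libraries, so the lowest shScamp1 library was far above the highest shNC library. The log2 fold change was 2.04 (SE 0.08, limma adjusted p = 0.000168), a 4.12-fold rise. Its neighbour ALDH3A2, the fatty aldehyde dehydrogenase of the endoplasmic reticulum, rose from 11.4 ± 0.168 FPKM in shNC to 16.7 ± 0.515 FPKM in shScamp1 libraries (SD, n = 3 per group; 0.54 on the log2 scale, limma adjusted p = 0.00295). ALDH3A1 lies on chromosome 17 from 19737984 to 19748943 and ALDH3A2 from 19648136 to 19677598. The other members of the subfamily, ALDH3B1 and ALDH3B2 on chromosome 11, had log2 fold changes of 0.05 (95% interval -0.12 to 0.22) and -0.22 (95% interval -0.39 to -0.05, adjusted p = 0.0961 by limma).

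The mitochondrial aldehyde dehydrogenases are described together. This group was formed from background knowledge after the values were seen. Of its 8 members 7 were tested, all 7 had a negative log2 fold change (-0.66 to -0.05), beside a median of -0.022 over all genes tested, and 2 passed the test, beside 5.17% of all genes tested. Since the group was chosen with these values in view, nothing is read from these counts. ALDH1B1, a mitochondrial enzyme that oxidises acetaldehyde and other short aldehydes, was at 36.2, 35.02 and 38.5 FPKM in shNC and 23.0, 24.9 and 21.7 FPKM in shScamp1 libraries. No shScamp1 library reached the lowest shNC library, and the log2 fold change was -0.66 (SE 0.08, limma adjusted p = 0.00397). ALDH18A1, which makes the precursor of proline and ornithine, fell from 41.1 ± 1.01 FPKM in shNC to 34.1 ± 1.92 FPKM in shScamp1 libraries (n = 3 per group, SD), with a log2 fold change of -0.27 (adjusted p = 0.0468 by limma) that passed the test in only 1 of the 6 fits that each left out a library (adjusted p from 0.00287 to 0.182). ALDH6A1, of valine breakdown, had a log2 fold change of -0.59 (adjusted p = 0.0538 by limma) and ALDH5A1, of GABA breakdown, of -0.31 (adjusted p = 0.153 by limma). ALDH2, the main acetaldehyde dehydrogenase, was at 3.74 to 4.08 FPKM in shNC and at 3.81, 2.48 and 3.89 FPKM in shScamp1 libraries. The ALDH2 ranges overlapped and its log2 fold change was -0.21 (95% interval -0.64 to 0.22), or -0.003 without shScamp1 replicate 2. Of the ALDH genes tested and not yet named, ALDH7A1, ALDH9A1, ALDH4A1 and ALDH16A1 had log2 fold changes of -0.16, -0.23, -0.05 and 0.15 and did not pass the test. ALDH4A1 belongs to the mitochondrial group and gives the -0.05 end of its range. AL080251.1, which covers 41.1% of the exonic bases of ALDH4A1 on its strand, held 2 reads over all 6 libraries. The sources used here do not say how reads on shared exons were assigned, so the level of ALDH4A1 is uncertain.

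**Figure D2:**
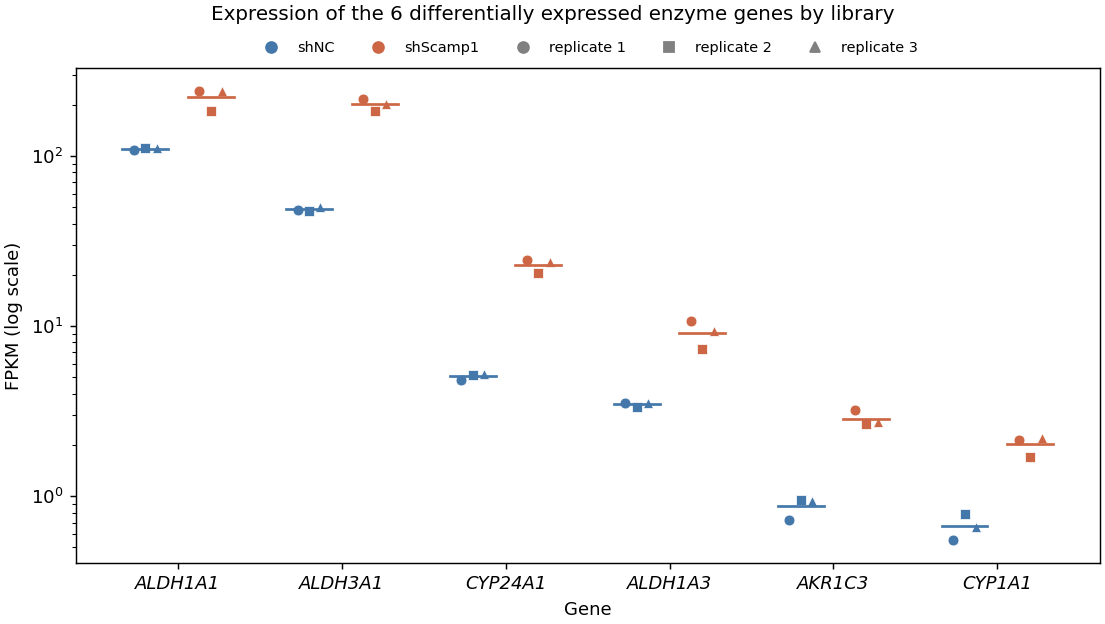
FPKM (logarithmic vertical axis) of the 6 enzyme genes with an adjusted p under 0.05 and a log2 fold change above 1, in each of the 3 shNC (blue) and 3 shScamp1 (orange) libraries, with horizontal lines at the group means and marker shapes for replicates. For each gene every shScamp1 point lies above every shNC point, from CYP1A1 at 0.551 to 2.21 FPKM up to ALDH1A1 at 108.5 to 242 FPKM.

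Among the aldo-keto reductases AKR1C3, a steroid and prostaglandin reductase (chromosome 10, 5035354 to 5107686), was at 0.724, 0.953 and 0.943 FPKM in shNC and 3.19, 2.64 and 2.71 FPKM in shScamp1 libraries, from 52 to 211 reads per library. The groups did not overlap, and the log2 fold change was 1.60 (SE 0.15, limma adjusted p = 0.00174). Only 4.5% of the 50-base windows of its transcripts occur in transcripts of another gene. AKR1B1, the aldose reductase that reduces glucose to sorbitol, was at 23.6, 21.7 and 24.3 FPKM in shNC and at 39.6, 26.2 and 39.1 FPKM in shScamp1 libraries. Its ranges did not overlap, but replicate 2 lay close to the shNC libraries, and the log2 fold change of 0.57 did not pass the test (adjusted p = 0.0763 by limma). Without shScamp1 replicate 2 it was 0.76 and passed (adjusted p = 0.000668), and over all alternatives the adjusted p ran from that value to 0.220. AKR1A1 and AKR7A2, which reduce a broad range of aldehydes, had log2 fold changes of -0.24 (adjusted p = 0.0711 by limma) and -0.28 (adjusted p = 0.109 by limma), with no overlap between groups. AKR7A3 had 17 to 32 reads per library and a log2 fold change of 0.16 (95% interval -0.48 to 0.80), and 23.1% of its windows occur in AKR7L.

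Among the cytochromes P450 the largest change was in CYP24A1, the mitochondrial 24-hydroxylase that inactivates vitamin D hormones. CYP24A1 (chromosome 20, 54153449 to 54173973) was at 4.84, 5.17 and 5.25 FPKM in shNC and 24.3, 20.5 and 23.8 FPKM in shScamp1 libraries. The groups were far apart, with a log2 fold change of 2.14 (SE 0.09, limma adjusted p = 0.000168), a 4.42-fold rise. The enzymes that activate vitamin D did not pass the test: CYP27B1 had a log2 fold change of 0.11 (95% interval -0.26 to 0.49) and CYP2R1 of -0.03 (95% interval -0.31 to 0.25), with overlapping ranges. VDR, the vitamin D receptor, rose from 10.9 ± 0.387 FPKM in shNC to 13.3 ± 0.562 FPKM in shScamp1 libraries (SD, n = 3 per group; 0.29 on the log2 scale, limma adjusted p = 0.0363).

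CYP1A1 (chromosome 15, 74719542 to 74725610) hydroxylates polycyclic aromatic compounds and is the classical target of the aryl hydrocarbon receptor. It was at 0.551, 0.786 and 0.660 FPKM in shNC and 2.13, 1.70 and 2.21 FPKM in shScamp1 libraries, from 30 to 111 reads per library. No values overlapped, and the log2 fold change was 1.47 (SE 0.18, limma adjusted p = 0.00493). With a pseudocount of 1 FPKM it was 0.85, below the fold threshold but past the test. CYP1B1, another target of the same receptor, was far more abundant at 34.0, 34.3 and 35.2 FPKM in shNC and 32.8, 36.5 and 35.4 FPKM in shScamp1 libraries. Its ranges overlapped, and the log2 fold change was 0.02 with a 95% interval of -0.14 to 0.18. The third member, CYP1A2, was not tested because of its low level. Some 12.9% of the exonic bases of CYP1B1 are covered by genes on the opposite strand.

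The CYP4F genes, whose products hydroxylate leukotrienes, vitamins and long-chain fatty acids, lie in a cluster on chromosome 19 and moved in both directions. CYP4F3 was at 15.4, 15.1 and 14.7 FPKM in shNC and 23.7, 20.2 and 23.2 FPKM in shScamp1 libraries (log2 fold change 0.56, adjusted p = 0.00808 by limma). CYP4F11 rose from 1.88 ± 0.0687 FPKM in shNC to 2.99 ± 0.238 FPKM in shScamp1 libraries (SD, n = 3 per group; 0.64 on the log2 scale, limma adjusted p = 0.00903). CYP4F12 fell from 9.05 ± 0.345 FPKM in shNC to 7.07 ± 0.573 FPKM in shScamp1 libraries (SD, n = 3 per group; -0.36 on the log2 scale, limma adjusted p = 0.0391). For each of the 3 genes the groups did not overlap. In the fits with 1 library removed, CYP4F3 passed in 6 of 6 fits, CYP4F11 in 4 of 6 (highest adjusted p 0.0513) and CYP4F12 in 1 of 6 (highest adjusted p 0.147).

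CYP2J2, an arachidonic acid epoxygenase, and CYP3A5, a broad drug oxidase, rose with log2 fold changes of 0.56 (adjusted p = 0.0446 by limma) and 0.45 (adjusted p = 0.0362 by limma). CYP2J2 had 44 to 73 reads per library and passed in 0 of 6 fits that left out a library (adjusted p 0.0528 to 0.146), and CYP3A5 passed in 1 of 6, without shScamp1 replicate 2 (adjusted p 0.0345 to 0.144 over the 6). CYP26B1, which degrades retinoic acid, was at 1.62 to 1.68 FPKM in shNC and 2.28, 1.66 and 2.17 FPKM in shScamp1 libraries. Replicate 2 fell within the shNC range, and the log2 fold change of 0.28 did not pass the test (adjusted p = 0.225 by limma, 0.0246 without that replicate, with others up to 0.413). CYP2S1, an extrahepatic P450 of epithelia, had the lowest log2 fold change of the 52 at -0.78, but on 14 to 50 reads per library and with a 95% interval of -1.47 to -0.09 it did not pass (adjusted p = 0.124 by limma). CYP51A1, the lanosterol demethylase of cholesterol synthesis, had a log2 fold change of -0.53 (adjusted p = 0.0967 by limma). On its strand 79.4% of its exonic bases are shared with AC000120.2 and AC000120.3, which held 2 and 0 reads over all 6 libraries. How reads on shared exons were assigned is not given in the sources used here, so the level of CYP51A1 is uncertain. CYP2D6, with 31.9% of its windows in CYP2D7, had a log2 fold change of -0.30, or -0.14 without shScamp1 replicate 2. CYP19A1, CYP20A1, CYP2W1, CYP39A1 and CYP4V2 had log2 fold changes of 0.23, 0.04, 0.14, 0.33 and 0.15, and none of these 6 genes passed the test. CYP19A1 averaged 0.472 FPKM in shNC and 0.572 FPKM in shScamp1 libraries and passed the filter only through shScamp1.

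Among the 12 conjugating enzyme genes tested (GST, SULT and UGT), 0 passed the test, 3 did at an unadjusted p under 0.05 (GSTA4, GSTM3 and GSTM4), and 2 did with voom on recovered reads (GSTM3 and GSTM4). Of all 15556 genes tested, 2498 were higher and 2284 lower at an unadjusted p under 0.05. With voom 1619 were higher and 1140 lower, so nothing about these enzymes is read from the counts of 3 and 2. GSTP1, the main glutathione S-transferase of epithelial cells and the most abundant of all 140 genes, was at 440.3, 437 and 461 FPKM in shNC and 429, 309 and 398 FPKM in shScamp1 libraries. The ranges did not overlap, though the highest shScamp1 library lay just under the lowest shNC library, and the log2 fold change was -0.25 (95% interval -0.57 to 0.07, adjusted p = 0.256 by limma), or -0.11 without replicate 2. GSTO1, an omega class thiol transferase, had a log2 fold change of -0.15 (95% interval -0.40 to 0.09), or -0.05 without replicate 2. The mu class genes GSTM3 and GSTM4 had the lowest values of the family, -0.65 and -0.60, with adjusted p of 0.0905 and 0.0922 by limma. In both genes replicate 2 was the lowest library (0.923 and 0.966 FPKM). GSTA4, which conjugates the lipid peroxidation product hydroxynonenal, had a log2 fold change of -0.31 (adjusted p = 0.0841 by limma), and GSTK1, GSTO2, GSTT2B and GSTZ1 had values of -0.14, -0.06, -0.40 and 0.13. GSTT2B shares 90.9% of its windows with GSTT2. The alpha class genes GSTA1, GSTA2, GSTA3 and GSTA5 had no reads.

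SULT2B1, which sulfates cholesterol in keratinising epithelia, was at 41.6, 46.0 and 46.9 FPKM in shNC and 55.7, 47.2 and 52.3 FPKM in shScamp1 libraries. All 3 shScamp1 values were above the shNC values, the lowest of them narrowly, and the log2 fold change of 0.21 did not pass the test (adjusted p = 0.176 by limma). SULT1A1, a phenol sulfotransferase, had a log2 fold change of -0.38 (adjusted p = 0.257 by limma), or -0.18 without shScamp1 replicate 2. UGT8, which makes galactosylceramide and is the only UGT gene above the expression filter, was at 19.4 to 19.5 FPKM in shNC and 16.2, 18.8 and 17.5 FPKM in shScamp1 libraries, with a log2 fold change of -0.15 (adjusted p = 0.213 by limma). Of the 22 UGT genes 12 had no reads.

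Several enzymes below 0.5 FPKM had enough reads to compare. When genes were instead kept on a mean of 10 or more reads over the 6 libraries, a choice made after seeing the data, 13 further members were tested and 6 of them were higher with a log2 fold change above 1. In that fit 2.72% of all 15570 genes were higher by this rule. The count of 6 is a description only, because 4 of them (CYP27C1, CYP4B1, UGT1A1 and UGT1A6) averaged under 10 reads in shNC and passed the filter only through shScamp1, the group where they were high. The other 2, AKR1C1 and AKR1C2, averaged at least 10 reads in both groups. AKR1C2, a steroid reductase, had 11, 13 and 9 reads in shNC and 62, 50 and 58 reads in shScamp1 libraries (log2 fold change 1.79, adjusted p = 0.000552 by limma). AKR1C1, which inactivates progesterone, had 12, 14 and 19 reads in shNC and 47, 55 and 63 reads in shScamp1 libraries (log2 fold change 1.38, adjusted p = 0.00312 by limma). Both lie beside AKR1C3 on chromosome 10. Of the 50-base windows of AKR1C2 38.1% occur in AKR1C1, and 28.3% of those of AKR1C1 occur in AKR1C2, so the division of reads between them is uncertain.

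For the 4 genes that passed only through shScamp1 the reads are given without a test. CYP27C1, which converts retinol to its dehydro form, had 6, 4 and 4 reads in shNC and 29, 27 and 32 reads in shScamp1 libraries. CYP4B1, a P450 of fatty acids and protoxins, had 6, 5 and 8 reads against 26, 16 and 19. For both genes every shScamp1 library was above every shNC library. Both were named because they were higher in shScamp1 libraries, so nothing is read from this separation. UGT1A1, the bilirubin transferase, had 3, 6 and 5 reads in shNC and 20, 13 and 14 in shScamp1 libraries. UGT1A6, which glucuronidates planar phenols, had 5, 5 and 4 reads against 16, 26 and 18. The UGT1A genes share their last exons: 49.9% of the exonic bases of UGT1A1 and 44.0% of those of UGT1A6 belong to other genes too, and for UGT1A6 a further 20.5% are covered by genes on the opposite strand. UGT1A3 had 0 reads in every library although 80.0% of its exonic bases are shared, and how reads on shared exons were assigned is not given in the sources used here, so the UGT1A values are uncertain. The other 7 of the 13, which did not pass the test, were ALDH1L2, CYP2C8, CYP2E1, CYP2U1, CYP4F8, UGT1A10 and SULT1A2.

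**Figure D3:**
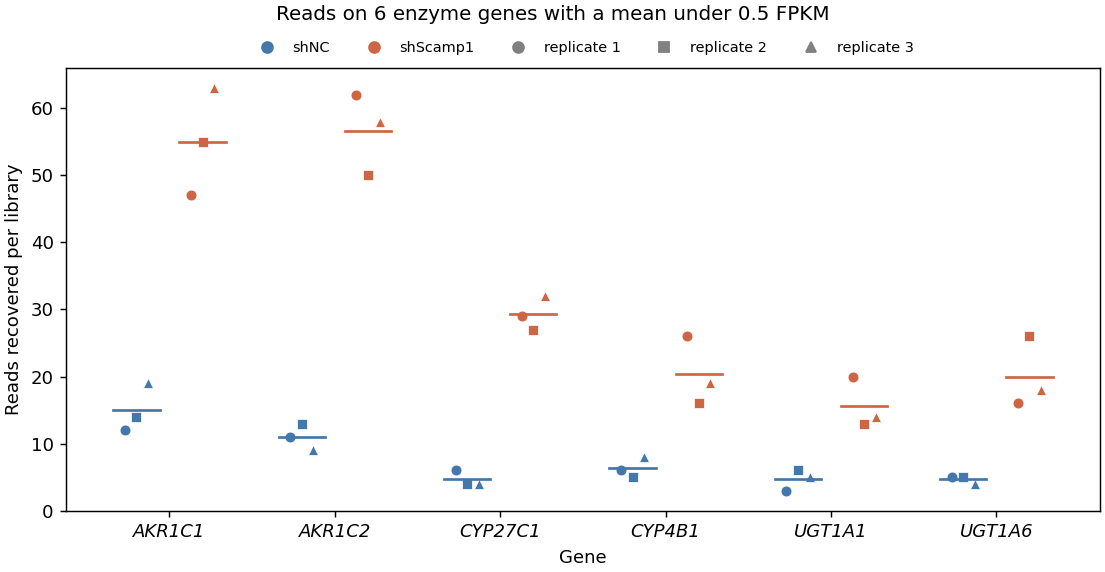
Number of reads recovered per library (vertical axis, from 0) for the 6 enzyme genes with a mean under 0.5 FPKM that were higher with a log2 fold change above 1 under the filter on reads, 4 of which passed it only through shScamp1, in shNC (blue) and shScamp1 (orange) libraries, with lines at the group means. The shNC libraries held 3 to 19 reads and the shScamp1 libraries 13 to 63 reads, without overlap within any of the genes. The genes were chosen by this difference, so nothing is read from the lack of overlap.

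Promoter sequence upstream of the start site was available from RefSeq on GRCh38.p14 for 4 of the 6 genes with a log2 fold change above 1, and is shown for these because they rose together. Each line gives 250 bases before the start, 5′ to 3′ in the direction of the gene, and the bases after each start were found in GENCODE 29 transcripts of that gene. Capitals mark matches on either strand to 5 short motifs: GCGTG (core of the aryl hydrocarbon receptor element), TGACNNNGC (core of the antioxidant response element), TGANTCA (AP-1) and the nuclear receptor cores AGGTCA and AGTTCA. TGACNNNGC and TGANTCA can overlap each other.

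ALDH1A1 (chr9:72953054-72953303, reverse strand): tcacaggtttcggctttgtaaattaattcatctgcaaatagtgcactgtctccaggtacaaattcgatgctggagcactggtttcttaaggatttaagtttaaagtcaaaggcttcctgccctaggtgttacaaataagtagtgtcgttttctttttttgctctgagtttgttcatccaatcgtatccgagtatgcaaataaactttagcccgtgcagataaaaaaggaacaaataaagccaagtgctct
ALDH1A3 (chr15:100879581-100879830, forward strand): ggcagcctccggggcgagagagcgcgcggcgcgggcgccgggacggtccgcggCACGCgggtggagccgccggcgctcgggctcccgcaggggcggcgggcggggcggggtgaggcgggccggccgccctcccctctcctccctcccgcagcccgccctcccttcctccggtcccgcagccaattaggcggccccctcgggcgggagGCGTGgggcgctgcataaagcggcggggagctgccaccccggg
AKR1C3 (chr10:5094164-5094413, forward strand): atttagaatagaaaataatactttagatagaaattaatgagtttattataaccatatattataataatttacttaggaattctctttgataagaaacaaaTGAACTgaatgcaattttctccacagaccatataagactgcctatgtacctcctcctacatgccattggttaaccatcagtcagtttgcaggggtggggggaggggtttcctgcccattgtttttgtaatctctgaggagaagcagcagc
CYP1A1 (chr15:74725529-74725778, reverse strand): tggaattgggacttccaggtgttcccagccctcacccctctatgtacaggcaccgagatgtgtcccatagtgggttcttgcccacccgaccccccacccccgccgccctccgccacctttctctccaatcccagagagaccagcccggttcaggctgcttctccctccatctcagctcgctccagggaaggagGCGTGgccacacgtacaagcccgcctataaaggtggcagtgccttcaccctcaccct

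GCGTG occurred in 2 of these 4 windows, ALDH1A3 and CYP1A1. In CYP1A1 it lies 57 to 53 bases before the start, and in ALDH1A3 it lies 197 to 193 and 43 to 39 bases before the start. This motif occurs in 32.2% of all 35116 promoter windows of the same length and in 34.4% of the 61 windows listed for the members tested, some of which have several. Those windows belong to 41 genes. With 1 window kept for each gene, 17 of the 41 had the motif. A gene with the motif only in a window that was not kept is left out of the 17. AGTTCA occurred in AKR1C3 (8.8% of all windows), while TGACNNNGC (10.9% of all windows), TGANTCA (6.57%) and AGGTCA (12.1%) were in 0 of the 4. A match describes the letters in this window and no binding was measured.

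The lists of other genes of the pathway were read against the same background of 8.82% higher and 5.17% lower. Of 25 receptors and partner factors 20 were tested, 5 rose and 1 fell. TIPARP, a target and repressor of the aryl hydrocarbon receptor, rose from 12.8 ± 0.593 FPKM in shNC to 21.3 ± 1.42 FPKM in shScamp1 libraries (SD, n = 3 per group; 0.73 on the log2 scale, limma adjusted p = 0.00261), while the receptor AHR had a log2 fold change of 0.34 (adjusted p = 0.0565 by limma). AHRR, a repressor of the same receptor, averaged 0.389 FPKM in shNC and 0.729 FPKM in shScamp1 libraries. Its log2 fold change was 0.76 (adjusted p = 0.102 by limma). AHRR passed the filter only through shScamp1, the group where it was high, so nothing is read from this value. ARNT2, a partner of basic helix-loop-helix receptors, fell from 1.88 ± 0.0956 FPKM in shNC to 0.531 ± 0.0393 FPKM in shScamp1 libraries (SD, n = 3 per group; -1.65 on the log2 scale, limma adjusted p = 0.00153), and the ubiquitous partner ARNT had a log2 fold change of -0.17 (adjusted p = 0.172 by limma). RARB, a retinoic acid receptor and itself a retinoic acid target, rose from 4.11 ± 0.208 FPKM in shNC to 6.88 ± 0.710 FPKM in shScamp1 libraries (SD, n = 3 per group; 0.73 on the log2 scale, limma adjusted p = 0.00633), whereas RARA and RARG did not pass the test (-0.27 and -0.06). PPARG (0.43), VDR and NFE2L2 (0.38, the NRF2 factor of the antioxidant response) also rose, and the drug receptors NR1I2 and NR1I3 were under 0.5 FPKM.

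Among 22 genes that supply electrons and cofactors 20 were tested, and 4 rose. POR, the electron donor of microsomal P450 enzymes, was at 46.6 ± 1.67 and 42.5 ± 0.544 FPKM (SD, n = 3 per group) and did not pass the test (log2 fold change -0.13). The genes that rose were GCLC (0.42), of glutathione synthesis, ME1 (0.39) and IDH1 (0.27), which make NADPH, and CYB5B (0.30), a cytochrome b5. Of 36 other enzymes of drug metabolism 20 were tested, of which TPMT rose (0.65) and the carboxylesterases CES2 (-0.42) and CES3 (-1.30) fell. CES3 averaged under 0.5 FPKM in shScamp1 libraries and passed the filter only through shNC, the group where it was high, so nothing is read from its value. NQO1, a quinone reductase that is a common readout of NRF2, was at 221 ± 4.54 and 265 ± 25.8 FPKM (n = 3 per group, SD), which gave a log2 fold change of 0.25 that did not pass the test (adjusted p = 0.121 by limma). Of 13 transporters 7 were tested and only ABCC4, an exporter of organic anions, passed, with a fall from 5.04 ± 0.101 FPKM in shNC to 3.28 ± 0.387 FPKM in shScamp1 libraries (SD, n = 3 per group; -0.61 on the log2 scale, limma adjusted p = 0.0124).

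Leaving out shScamp1 replicate 2 changed the call of 11 enzyme genes, and leaving out any of the other libraries changed 4 or 5. Over all 15556 genes tested, 2280 were higher and 2050 lower without shScamp1 replicate 2, against 1372 and 805 with all 6 libraries. Among the 52 enzyme genes 14 were then higher and 10 lower, against 12 and 3 with all 6 libraries. The 3 further genes that were then higher were AKR1B1 (0.76), CYP26B1 (0.42) and SULT2B1 (0.27), and CYP2J2 was the only call lost. The 7 that were then lower were ALDH6A1 (-0.63), ALDH5A1 (-0.44), CYP51A1 (-0.34), ALDH3B2 (-0.26), ALDH9A1 (-0.22), UGT8 (-0.20) and AKR1A1 (-0.19). Replicate 2 had the lowest level of the 3 shScamp1 libraries for 30 of the 52 genes and the highest for 14, beside 44.2% and 41.3% of all genes tested. Without it the log2 fold change moved by over 1.5 times or changed sign in 15 of the 37 genes that had not passed the test and in 0 of the 15 that had. A difference near 0 meets this rule more easily than a large one, so nothing is read from the contrast.

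**Figure D4:**
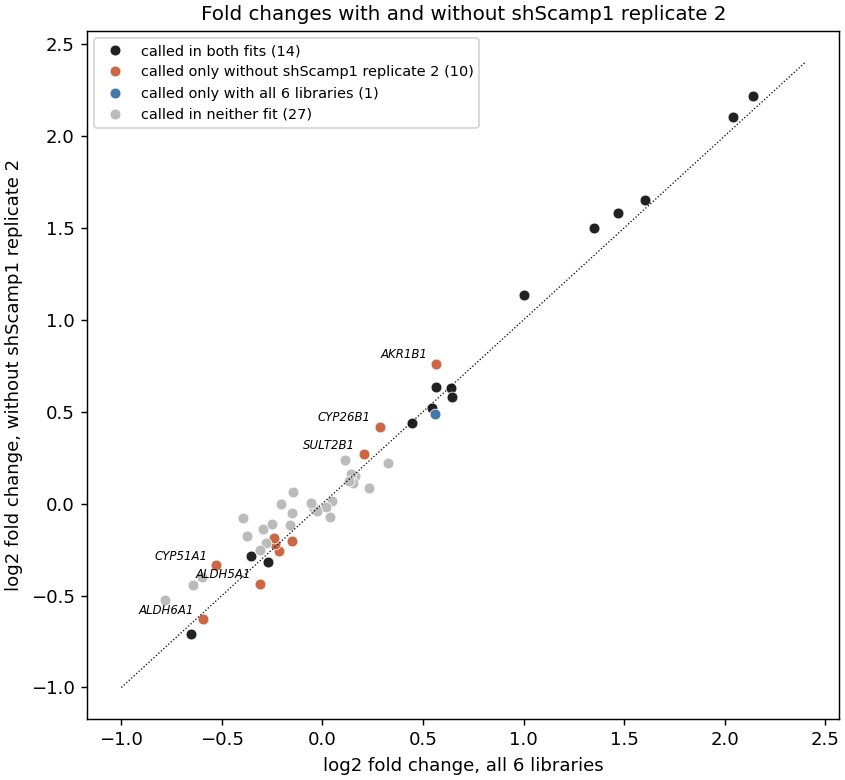
Log2 fold change (shScamp1 minus shNC) of the 52 enzyme genes with all 6 libraries (horizontal axis) and without shScamp1 replicate 2 (vertical axis), on log2(FPKM + 0.1), with the dotted line where both are equal. Of the genes, 14 passed the test in both fits (black), 10 only without replicate 2 (orange), 1 only with all libraries (blue) and 27 in neither (grey).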

How the data were processed

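RNA of 3 shNC and 3 shScamp1 libraries of NCI-N87 cells was sequenced, and the authors deposited a table of FPKM by gene for each library, beside the length and position of the gene. The submitters' processing notes name HISAT2 2.0.5, featureCounts 1.5.0-p3, DESeq2 1.20.0 and hg38, without stating how they were combined. The coordinates of all 140 members equalled GENCODE 29 on GRCh38. FPKM multiplied by gene length was a whole multiple (tolerance 0.05) of a single step for 100% of values above 0 in each library, up to 10000 reads, which gave the reads on each gene. The recovered totals were 14311769 to 15988700, so depth limits mainly genes with few reads. FPKM was used as deposited.

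Groups and replicate numbers came from the sample titles. limma 3.58.1 in R 4.3.3 (moderated, two-sided, with trend) was applied to log2(FPKM + 0.1) of the 15556 genes that averaged 0.5 FPKM or more, with Benjamini-Hochberg adjustment over all of them. The fit was tested on simulated reads with 200 genes changed by 1.5 on the log2 scale among 15599 genes: 190 were tested, 84.2% were recovered and 16 unchanged genes were called. The simulation gave every gene the same spread between libraries (dispersion 0.006) and held no library that stood apart as shScamp1 replicate 2 did. Its rates therefore check the code and are not error rates of these data. Shared sequence was the share of 50-base transcript windows found in another gene. Python 3.11.15 with pandas 2.3.3, numpy 2.4.6 and matplotlib 3.10.9 was used. RefSeq promoters matched 108 of the 140 members by symbol. Named genes were those past both thresholds, the most abundant and most changed of each family, and listed subfamilies, and other genes were named after their values were seen. The members and lists were chosen with earlier results of these data known. The counting settings and use of strand are not given in the sources used here. Alternatives covered the pseudocount, filter, trend, scaling, biotype, voom on recovered reads, the replicate number as a block and leaving out each library. The unadjusted p and a filter of 10 reads were added once the data had been seen. Same-numbered libraries of the groups did not deviate together (correlations -0.035, 0.032 and 0.067), so no pairing was used.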

Additional observations from a re-analysis of the deposited data

How the results depend on the processing

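Over 17 alternatives the enzyme genes that rose numbered 9 to 18 (12 as reported), and all 15 genes called kept their direction. Over all 15556 genes tested, higher genes numbered from 644 without shNC replicate 2 to 2498 at an unadjusted p under 0.05 (1372 as reported). With a mean of at least 10 reads, 6 of the enzyme genes that rose were added by that filter, and 4 of these passed it only through shScamp1. Nothing is read from the range of 9 to 18. In the 6 fits that each left out a library, 10 of the 15 calls held every time, and the lower genes numbered 1 to 10 (3 as reported), with 10 without shScamp1 replicate 2 and 1 in the other 5 fits. Among all genes tested, 2050 were lower without shScamp1 replicate 2 and 164 to 673 in the other 5 fits. Lower genes numbered 1 with no filter beyond a value above 0, 5 with scaling by total FPKM, 5 with protein-coding genes only, 6 with voom on recovered reads and 14 at an unadjusted p under 0.05. Over all 15556 genes tested, lower genes numbered 805 as reported, 880 with that scaling, 1140 with voom and 2284 at an unadjusted p under 0.05. They numbered 514 of 33572 genes with no such filter and 1056 of 11529 with protein-coding genes only. With the replicate block, which the libraries share in number only, 10 rose and 1 fell, against 704 higher and 254 lower of all 15556 genes tested. The genes higher with a log2 fold change above 1 numbered 4 to 8 in the other alternatives and 12 with a mean of at least 10 reads, where more genes were tested and 4 of the added ones passed the filter only through shScamp1. The cause of these differences was not tested. Values near 0 changed sign without passing the test: with scaling by total FPKM CYP1B1 was at -0.011, and over the fits that left out a library CYP1B1 ranged from -0.017 to 0.059, AKR7A3 from -0.092 to 0.291, CYP20A1 from -0.071 to 0.144, CYP27B1 from -0.009 to 0.237, CYP2R1 from -0.082 to 0.007, GSTK1 from -0.260 to 0.062 and GSTO2 from -0.111 to 0.003.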
